A study of Homo sapiens with 16 samples.

Results

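The arrays that measured z-VRPR-fmk against vehicle in HBL-1 and TMD8 cells are described here. They were chosen by their titles: the z-VRPR-fmk array of each line and vehicle arrays 1 to 4 of the same line, 10 of the 16 arrays of the study. HBL-1 and TMD8 are established human lines of diffuse large B cell lymphoma (DLBCL) of the ABC type, named for its likeness to activated B cells, in which survival depends on the transcription factor NF-kB. The groups were HBL-1 with vehicle for 8 h (4 arrays), HBL-1 with z-VRPR-fmk for 8 h (1 array), TMD8 with vehicle for 8 h (4 arrays) and TMD8 with z-VRPR-fmk for 8 h (1 array). The other 6 arrays, 3 per line, came from cells given MI-2 for 8 h and helped to estimate the spread. Each line is a single line and stands for no other lymphoma. Neither dose nor vehicle composition is stated in the sources used here. Nothing states that replicate arrays stem from independent cultures, and p-values therefore reflect the spread among arrays, possibly a technical one.

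MALT1 is a protease and a scaffold. Bound to BCL10 in a larger complex, it passes signals from the B cell receptor to the IKK kinases and so to NF-kB. As a protease it cleaves, among others, the deubiquitinases A20 (TNFAIP3) and CYLD, the NF-kB subunit RelB and the mRNA-cutting enzyme Regnase-1 (ZC3H12A). z-VRPR-fmk is a peptide with a fluoromethylketone group that binds the protease's active site. MI-2 is an unrelated inhibitor of MALT1, a small molecule and not a peptide.

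The level of a gene is given as log2 intensity after background correction and quantile normalization, and a change as z-VRPR-fmk minus the mean of the line's 4 vehicle arrays. Of 34687 named genes, 17581 had a probe detected above background on at least 3 arrays and were tested. Median raw intensities ran from 82.5 to 103 over the 16 arrays, and 82.5 belonged to TMD8 with z-VRPR-fmk. The share of probes detected ran from 34.1% to 40.8%, with 40.2% and 37.8% on the z-VRPR-fmk arrays of HBL-1 and TMD8. All 10 B cell markers passed the detection filter, with a summed linear level of 17989 to 25746 on the vehicle arrays, 25764 with z-VRPR-fmk in HBL-1 and 19509 in TMD8. Of the other cell types, 4 of 11 T cell (CD2, CD5, CD8A and LCK) and 2 of 7 NK cell markers (KLRF1 and FCGR3A) passed. So did 3 of 12 myeloid (LYZ, MPO and CD68), 4 of 7 erythroid, 4 of 8 epithelial, 2 of 7 fibroblast and 6 of 7 plasma cell markers. Among those that did not pass were CD3D, CD3E, CD3G, NKG7, GNLY, CD14 and CSF1R. The summed level of the myeloid markers was 205 to 286 on the vehicle arrays, 179 with z-VRPR-fmk in HBL-1 and 262.5 in TMD8. For the epithelial markers it was 243 to 762 on the vehicle arrays, 422 with z-VRPR-fmk in HBL-1 and 711 in TMD8. For the plasma cell markers it was 3320 to 5530, 3853 and 5440 in the same order.

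Across both lines a single gene, TM2D3, passed an adjusted p of 0.05 (limma, Benjamini-Hochberg over all genes), which is 0.00569% of the genes tested. It was lower with z-VRPR-fmk, and 0 genes were higher past that threshold. An unadjusted p under 0.05 was reached by 738 genes (4.2%). With 1 z-VRPR-fmk array per line, the median standard error (SE) of a change over both lines was 0.16 log2, and the spread of the z-VRPR-fmk groups was taken to equal that of the other groups. Without regard to the test, 833 genes (4.74%) lay below all 4 vehicle arrays in both lines and 754 (4.29%) lay above them. The z-VRPR-fmk level lay below that of vehicle 4 in both lines for 4974 genes (28.3%) and above it for 4212 (24%). Over all genes the changes in HBL-1 and in TMD8, which share no array, had a Pearson correlation of 0.07 and the same sign for 52.8% of genes.

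TM2D3 encodes a transmembrane protein of the small TM2 domain family, whose Drosophila counterpart almondex acts in Notch signalling. In HBL-1 its level was 10.45, 10.40, 10.44 and 10.32 on vehicle arrays 1 to 4 and 9.62 with z-VRPR-fmk. In TMD8 it was 10.50, 10.43, 10.26 and 9.94 on the vehicle arrays and 9.09 with z-VRPR-fmk. The z-VRPR-fmk array was the lowest in each line, and the groups did not overlap. In RNA of whole cultures, fewer cells with a transcript and less of it per cell cannot be told apart. TM2D3 fell by 0.98 on the log2 scale (SE 0.14, adjusted p = 0.0311 by limma), a 1.98-fold lower level. Against vehicle 4 of the line the difference was -0.70 in HBL-1 and -0.85 in TMD8. With the replicate number as a block, which leaves only those 2 differences, the change was -0.78 and no longer passed (adjusted p = 1). Of the other family members, TM2D2 had a change of -0.37 (unadjusted p = 0.0413) and TM2D1 one of 0.14, neither past the threshold. TM2D2 differed from vehicle 4 by 0.08 in HBL-1 and by -0.69 in TMD8, so its direction in HBL-1 depended on the vehicle array used.

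The call for TM2D3 was also lost with arrays scaled to their medians (-1.08, adjusted p = 1), with only the 10 z-VRPR-fmk and vehicle arrays in the fit (adjusted p = 0.229) and when single arrays were left out. The adjusted p became 0.0865 without HBL-1 vehicle 1, 0.0596 without HBL-1 vehicle 2, 0.065 without TMD8 vehicle 2 and 0.0811 without TMD8 vehicle 3. Leaving out an MI-2 array gave 0.0601 and 0.0543 for HBL-1 arrays 1 and 3, and 0.0562 and 0.0535 for TMD8 arrays 1 and 2. It was 0.0604 without the HBL-1 z-VRPR-fmk array and 1 without the TMD8 one. The change itself stayed between -1.19 and -0.78 over all these settings.

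**Figure D1:**
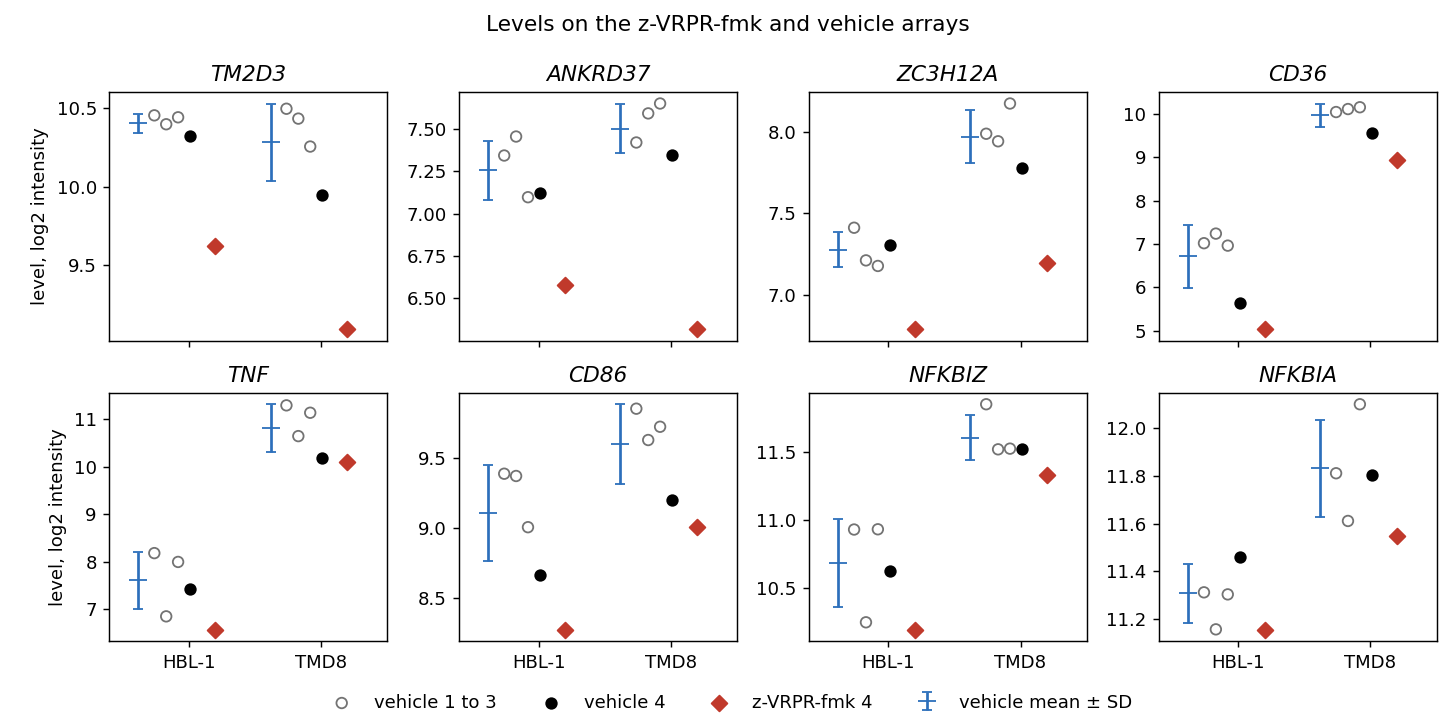
Levels (log2 intensity, vertical axis, each panel on its own scale) of 8 genes on the vehicle arrays 1 to 3 (open circles), vehicle 4 (black) and the z-VRPR-fmk array (red diamond) of HBL-1 and TMD8, with the mean ± SD of the 4 vehicle arrays in blue. The genes shown all belong to the 4.74% of tested genes that lay below all vehicle arrays in both lines. The z-VRPR-fmk array is therefore the lowest of its line in every panel, by least for NFKBIA in HBL-1 (11.15 against 11.16).

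ANKRD37, an ankyrin repeat protein whose gene is induced by hypoxia, came next in order of p. Its HBL-1 levels were 7.34, 7.46, 7.10 and 7.12 with vehicle and 6.58 with z-VRPR-fmk. Its TMD8 levels were 7.42, 7.59, 7.65 and 7.35 with vehicle and 6.32 with z-VRPR-fmk. Both z-VRPR-fmk arrays lay below every vehicle array of their line. The change was -0.93 (SE 0.15) and missed the threshold with an adjusted p of 0.0548 by limma, and the differences from vehicle 4 were -0.55 in HBL-1 and -1.03 in TMD8. The 30 tested genes of the glycolysis and hypoxia list, which holds ANKRD37, had a median change of -0.05, with 19 lower and 11 higher.

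ZC3H12A encodes Regnase-1, an RNase that degrades mRNAs of inflammatory genes and is itself a MALT1 substrate. It stood at 7.41, 7.21, 7.18 and 7.31 with vehicle and 6.79 with z-VRPR-fmk in HBL-1. In TMD8 it stood at 7.99, 7.94, 8.17 and 7.78 with vehicle and 7.20 with z-VRPR-fmk. The groups did not overlap in either line, and the distance from vehicle 4 was similar, at -0.52 in HBL-1 and -0.58 in TMD8. The change of -0.63 (SE 0.13) did not pass (adjusted p = 0.452 by limma).

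Apart from TM2D3 and ANKRD37, the largest negative changes among characterised genes below all vehicle arrays in both lines did not pass the test, and are given as values. CD36, a fatty acid and scavenger receptor, stood at 7.02, 7.24, 6.96 and 5.63 with vehicle and 5.04 with z-VRPR-fmk in HBL-1. In TMD8 it stood at 10.03, 10.10, 10.14 and 9.56 with vehicle and 8.94 with z-VRPR-fmk. Vehicle 4 itself lay apart from the other vehicle arrays, most of all in HBL-1. The change was -1.35 (SE 0.29, adjusted p = 0.486 by limma) against 4 vehicle arrays, and -0.59 in HBL-1 and -0.63 in TMD8 against vehicle 4. A second CD36 probe gave -1.13. Without HBL-1 vehicle 4 the change was -1.51 with an adjusted p of 0.0163, and without both vehicle 4 arrays -1.60 with 0.00208.

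For GZMB, the cytotoxic protease granzyme B, vehicle 4 was the lowest vehicle array in HBL-1 but not in TMD8. The HBL-1 vehicle levels of GZMB were 9.57, 9.15, 8.42 and 7.61, against 7.23 with z-VRPR-fmk. Its TMD8 vehicle levels were 12.30, 11.69, 12.37 and 11.84, against 11.45 with z-VRPR-fmk. The vehicle arrays of HBL-1 thus covered a wider range than the step from vehicle 4 to z-VRPR-fmk, which was -0.38 in HBL-1 and -0.39 in TMD8. Of the T and NK cell markers, CD2, CD5, CD8A, LCK, KLRF1 and FCGR3A passed the detection filter. CD3D, NKG7 and GNLY were among those that did not. MAP3K8, a kinase upstream of ERK, had a change of -0.85, with -0.46 and -0.20 against vehicle 4 of HBL-1 and TMD8. ID2, which blocks the DNA binding of E proteins, had a change of -0.88, with -0.27 in HBL-1 and -1.01 in TMD8 against vehicle 4, and its second probe gave -0.91. JUN, a subunit of AP-1, had a change of -0.84, with -0.45 and -1.08 against vehicle 4. RAB13, a small GTPase, was not detected with z-VRPR-fmk in TMD8, where it was at least 1.83-fold lower than with vehicle (mean 5.52 with vehicle, 4.30 measured with z-VRPR-fmk). Its change over both lines was -0.72, and ran from -1.22 to -0.23 with an array left out. None of these differences passed the adjusted test.

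No gene higher with z-VRPR-fmk passed over both lines. Among characterised genes above all vehicle arrays in both lines, HLA-DOA, which tunes peptide loading of MHC class II in B cells, had the largest change. Its levels were 6.87, 7.48, 7.27 and 7.76 with vehicle and 8.00 with z-VRPR-fmk in HBL-1, and 6.65, 7.34, 7.34 and 7.95 with vehicle and 8.41 with z-VRPR-fmk in TMD8. Vehicle 4 was the highest vehicle array in both lines, so a change of 0.87 (SE 0.32) against all vehicle arrays became 0.24 in HBL-1 and 0.46 in TMD8 against vehicle 4. ASS1, argininosuccinate synthase, had a change of 1.42 in HBL-1 and 0.16 in TMD8, but stood only 0.19 and 0.20 above vehicle 4. SH3PXD2A, a scaffold of invadopodia, had a change of 0.73, with 0.11 and 0.19 against vehicle 4, and MGAT3, an N-glycan branching enzyme, 0.74, with 0.30 and 0.26. PGP (0.72) and C6ORF120 (0.71) kept most of their distance, with 0.59 and 0.68 for PGP and 0.46 and 0.50 for C6ORF120 against vehicle 4 of HBL-1 and TMD8. Both were dim, near 5 log2 units, and a second PGP probe gave -0.03.

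MALT1 and BCL10 themselves showed little movement. MALT1 stood at 7.20 ± 0.16 (SD, n = 4) with vehicle and 7.27 with z-VRPR-fmk in HBL-1, and at 7.07 ± 0.14 (SD, n = 4) and 6.92 in TMD8. BCL10 had a change of -0.02. The 26 tested genes of the MALT1 complex and IKK activation had a median change of -0.02 (16 lower, 10 higher), 0 of them below or above all vehicle arrays in both lines. The 16 tested MALT1 substrates had a median of 0.01 (7 lower, 9 higher), with 1 member, ZC3H12A, below all vehicle arrays in both lines (6.25%, against 4.74% of all genes) and 1, the kinase gene ICK, above them (6.25%, against 4.29%). TNFAIP3, which encodes A20, had a change of -0.21, CYLD one of -0.13 and RELB one of 0.02 (SE 0.20, 0.23 and 0.17). These values are of RNA and say nothing of the cleaved proteins.

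NF-kB is a family of dimers held in the cytoplasm by inhibitors of the IkB family, several of which are themselves NF-kB targets. Of 75 listed NF-kB targets, 70 were tested. On balance their levels were lower with z-VRPR-fmk: 50 of 70 had a change below 0 (71.4%, against 50.8% of all genes), with a median of -0.12 against -0.003 for all genes. The median was -0.12 in HBL-1 and -0.13 in TMD8. In both lines 30 members were lower against 8 higher (4838 and 4437 of all 17581 genes). Below all vehicle arrays in both lines were 8 members (11.4%, against 4.74% of all genes), and 1 member, TNFAIP8, lay above them. Of the 70, 0 passed the adjusted test and 9 had an unadjusted p under 0.05, all 9 lower, against 738 of all 17581 genes (4.2%), 338 of them lower. Against vehicle 4 the median was -0.07, with -0.11 in HBL-1 and 0.00 in TMD8, and 43 of 70 were lower. The TMD8 value of 0.00 is the median of the differences gene by gene; the list's median deviation from the vehicle mean was -0.13 with z-VRPR-fmk and -0.08 on vehicle 4. The size of the median over both lines moved with processing, to -0.20 with arrays scaled to their medians (where all genes had a median of -0.07), -0.07 in the authors' deposited values and -0.08 without background correction.

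**Figure D2:**
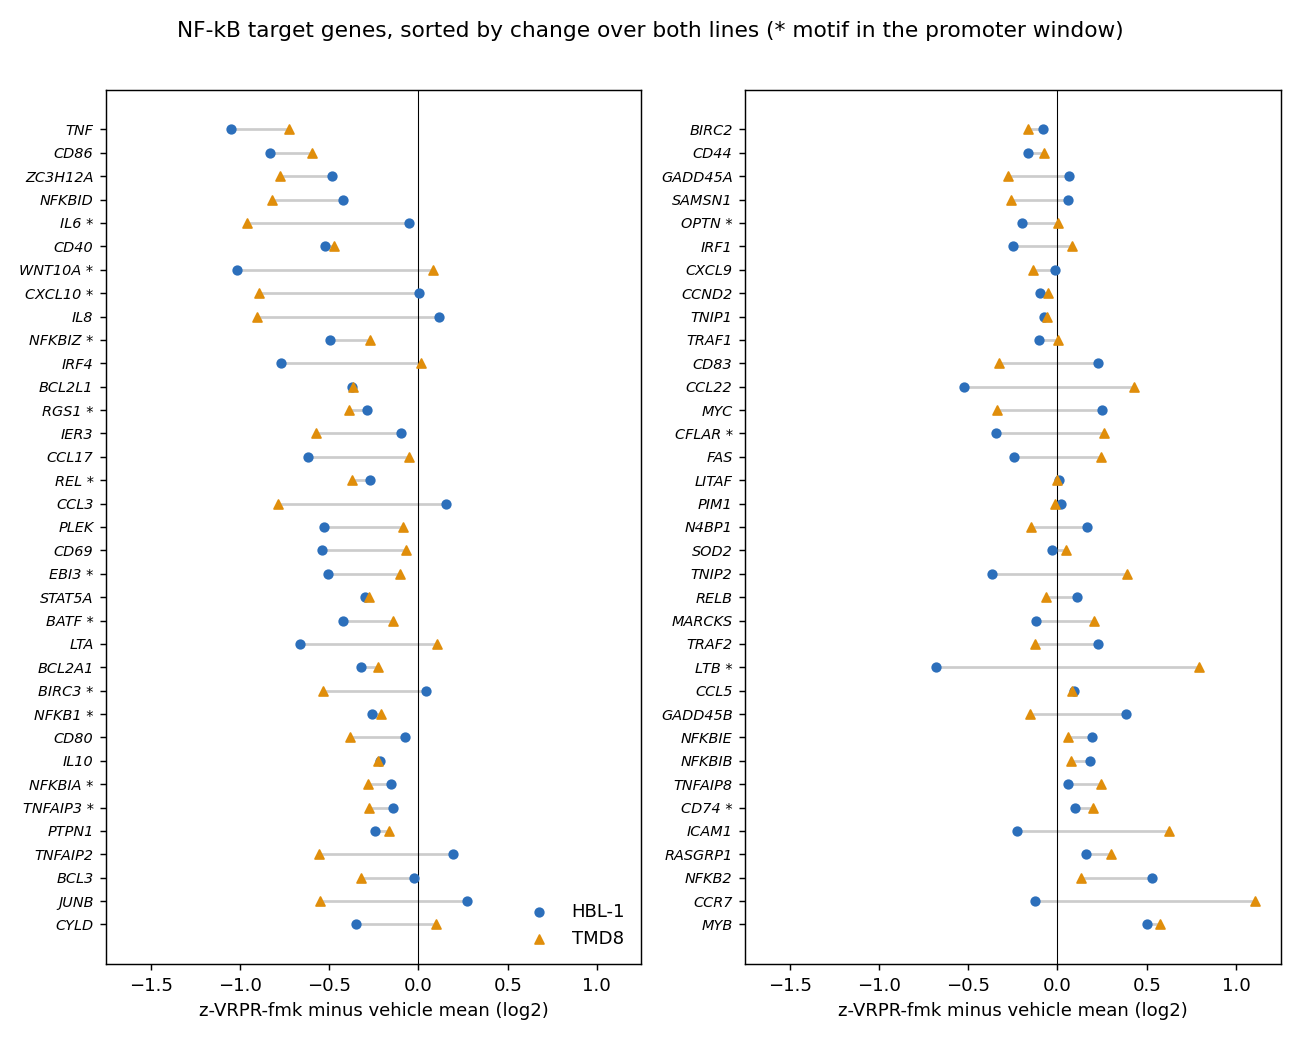
Change of each of the 70 tested NF-kB target genes (z-VRPR-fmk minus the vehicle mean of the line, log2, horizontal axis) in HBL-1 (circles) and TMD8 (triangles), sorted by the change over both lines from top left to bottom right. An asterisk marks the 16 genes whose RefSeq promoter window holds the motif searched for. TNF, CD86, ZC3H12A and NFKBID are left of 0 in both lines, and LTB and CCR7 differ in sign between the lines.

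Of the IkB family genes among these targets, NFKBIA, NFKBIZ and NFKBID lay below all vehicle arrays in both lines. NFKBIE, NFKBIB and BCL3 did not. NFKBIA, the IkB-alpha gene, stood at 11.31, 11.16, 11.30 and 11.46 with vehicle and 11.15 with z-VRPR-fmk in HBL-1, and at 11.81, 11.61, 12.10 and 11.80 with vehicle and 11.55 with z-VRPR-fmk in TMD8. NFKBIZ, a nuclear IkB protein, stood at 10.93, 10.25, 10.93 and 10.63 against 10.19 in HBL-1, and at 11.86, 11.52, 11.53 and 11.53 against 11.34 in TMD8. Both genes lay just below their lowest vehicle array. The change was -0.22 (SE 0.14) for NFKBIA and -0.38 (SE 0.17) for NFKBIZ, with differences from vehicle 4 of -0.30 and -0.26 for NFKBIA and -0.44 and -0.19 for NFKBIZ in HBL-1 and TMD8. NFKBID, another nuclear IkB protein, had a change of -0.62, but in TMD8 it differed from vehicle 4 by only -0.03. NFKBIE, the IkB-epsilon gene, had a change of 0.13, NFKBIB one of 0.13 and BCL3 one of -0.17. Of the subunits, REL had a change of -0.32, NFKB1 of -0.23, RELA of 0.08 and NFKB2 of 0.33, none of them beyond all vehicle arrays in both lines.

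TNF, an inflammatory cytokine, and CD86, a ligand for T cell costimulation, had the largest changes in size among the 70 targets. TNF stood at 8.18, 6.85, 8.00 and 7.43 with vehicle and 6.56 with z-VRPR-fmk in HBL-1, and at 11.29, 10.64, 11.14 and 10.19 with vehicle and 10.09 with z-VRPR-fmk in TMD8. The vehicle arrays spanned more than 1 log2 unit in each line, and TNF in TMD8 differed from vehicle 4 by -0.10. CD86 had a change of -0.71 (SE 0.22), with -0.39 and -0.19 against vehicle 4. The 2 other CD86 probes gave -0.66 and -0.08. IL6 was detected in HBL-1 on 1 of 4 vehicle arrays and not with z-VRPR-fmk. In TMD8 it stood at 6.43, 5.21, 7.02 and 6.71 with vehicle and 5.38 with z-VRPR-fmk, inside the vehicle range. IL10 had a change of -0.22. BCL2L1 (BCL-XL), which protects from apoptosis, had a change of -0.37 with 0.06 against vehicle 4 in TMD8. BCL2A1, of the same family, was not detected with z-VRPR-fmk in HBL-1, where it was at least 1.17-fold lower (mean 4.81 with vehicle, 4.49 measured with z-VRPR-fmk). BIRC3, CFLAR, CD83, CD44 and MYC had changes of -0.25, -0.04, -0.05, -0.12 and -0.04. With an array left out, the change ran from -0.54 to 0.04 for BIRC3 and from -0.34 to 0.26 for CFLAR. It ran from -0.33 to 0.23 for CD83 and from -0.34 to 0.25 for MYC. The sign of these 4 thus depended on the arrays used, while CD44 stayed at -0.16 to -0.08.

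Promoter sequences were compared with these values for the NF-kB targets. RefSeq promoter windows (GRCh38.p14, 250 bases before to 50 bases after the gene start) were found for 59 of the 70 genes. Each was searched on both strands for a simplified form of the sequence that NF-kB dimers bind, GGG and TTCC with 3 bases of any kind between them. It occurred in 16 of the 59 windows (27.1%), in 7.30% of the 9648 windows found for tested genes and in 6.52% of all 35116 windows. Of the 16 targets with the motif 14 were lower with z-VRPR-fmk, with a median change of -0.27 (-0.27 in HBL-1 and -0.24 in TMD8). Of the 43 without it 29 were lower, with a median of -0.10. Against vehicle 4 the medians were -0.10 with the motif, 11 of 16 being lower, and -0.06 without it. Over all 712 tested genes whose window held the motif the median change was -0.006, and over the 9126 without it 0.003 (names matched to the same window are each counted here). No test was made of these medians, and a match describes the letters of the window and shows no binding.

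The windows of the 4 genes that held the motif and lay below all vehicle arrays in both lines are shown, since their levels and sequence can be read together. They were chosen after their values were seen, and capitals mark the motif on either strand. The motif begins 223 bases before the start in NFKBIZ (chr3:101827740-101828039, plus strand), 214 in EBI3 (chr19:4229273-4229572, plus strand) and 237 in BATF (chr14:75522219-75522518, plus strand). In NFKBIA (chr14:35404700-35404999, minus strand) it begins 81 bases before the start and reads on the opposite strand of the gene.
NFKBIZ: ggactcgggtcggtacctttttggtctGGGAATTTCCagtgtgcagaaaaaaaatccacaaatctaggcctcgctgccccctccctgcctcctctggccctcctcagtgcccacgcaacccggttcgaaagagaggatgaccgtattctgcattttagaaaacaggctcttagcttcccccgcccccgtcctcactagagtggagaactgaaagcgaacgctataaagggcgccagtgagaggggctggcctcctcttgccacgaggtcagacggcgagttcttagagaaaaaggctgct
EBI3: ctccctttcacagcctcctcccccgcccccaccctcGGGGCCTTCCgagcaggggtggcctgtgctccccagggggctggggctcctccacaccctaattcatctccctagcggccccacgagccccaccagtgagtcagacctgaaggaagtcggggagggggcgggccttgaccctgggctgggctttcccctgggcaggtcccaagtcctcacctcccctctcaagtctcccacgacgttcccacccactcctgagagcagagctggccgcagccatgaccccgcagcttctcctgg
BATF: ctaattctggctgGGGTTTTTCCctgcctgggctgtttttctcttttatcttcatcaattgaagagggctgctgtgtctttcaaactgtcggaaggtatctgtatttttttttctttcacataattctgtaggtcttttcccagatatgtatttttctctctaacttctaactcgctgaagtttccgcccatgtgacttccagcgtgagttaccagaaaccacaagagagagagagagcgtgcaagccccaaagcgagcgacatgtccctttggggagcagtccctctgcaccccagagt
NFKBIA: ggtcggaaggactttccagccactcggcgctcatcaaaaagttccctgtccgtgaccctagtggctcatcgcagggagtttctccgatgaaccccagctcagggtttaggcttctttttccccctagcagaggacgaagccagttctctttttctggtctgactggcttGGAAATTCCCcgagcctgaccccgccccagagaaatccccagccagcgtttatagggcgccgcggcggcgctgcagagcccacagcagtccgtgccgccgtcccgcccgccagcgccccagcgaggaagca
EBI3, a subunit of IL-27 and IL-35, had a change of -0.30 (-0.50 in HBL-1, -0.10 in TMD8). BATF, an AP-1 family factor that works with IRF4, stood at 9.76, 9.73, 10.09 and 9.72 with vehicle and 9.40 with z-VRPR-fmk in HBL-1, and at 11.03, 11.07, 11.33 and 11.09 against 10.99 in TMD8. BATF thus lay well below the lowest vehicle array in HBL-1 and just below it in TMD8.

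mRNAs bound by Regnase-1 or Roquin, which are spared when MALT1 cleaves these proteins, were listed apart. Of 29, 21 were tested and 18 of the 21 (85.7%) had a change below 0, against 50.8% of all genes. The median was -0.19, with -0.09 in HBL-1 and -0.27 in TMD8. In both lines 13 members were lower against 0 higher (4838 and 4437 of all 17581 genes). The median against vehicle 4 was close to -0.19 at -0.17, with -0.17 in HBL-1 and -0.19 in TMD8. Below vehicle 4 in both lines lay 10 members, against 0 above (28.3% and 24% of all genes). The 4 below all vehicle arrays in both lines (19%, against 4.74%) were TNF, ZC3H12A, NFKBID and NFKBIZ. These 4 are also on the NF-kB list, as are IL6, REL, IER3, RGS1 and IRF4, so the lists are not separate observations. TNFRSF4 had a change of -0.40, RGS1 of -0.34, IER3 of -0.34, TFRC of -0.14 and the 3 higher members were ICOSLG (0.22), HMGA1 (0.23) and PDLIM7 (0.31). None of the 21 passed the adjusted test. The size of the median moved with processing, to -0.10 in the authors' deposited values and to -0.27 with arrays scaled to their medians.

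**Figure D3:**
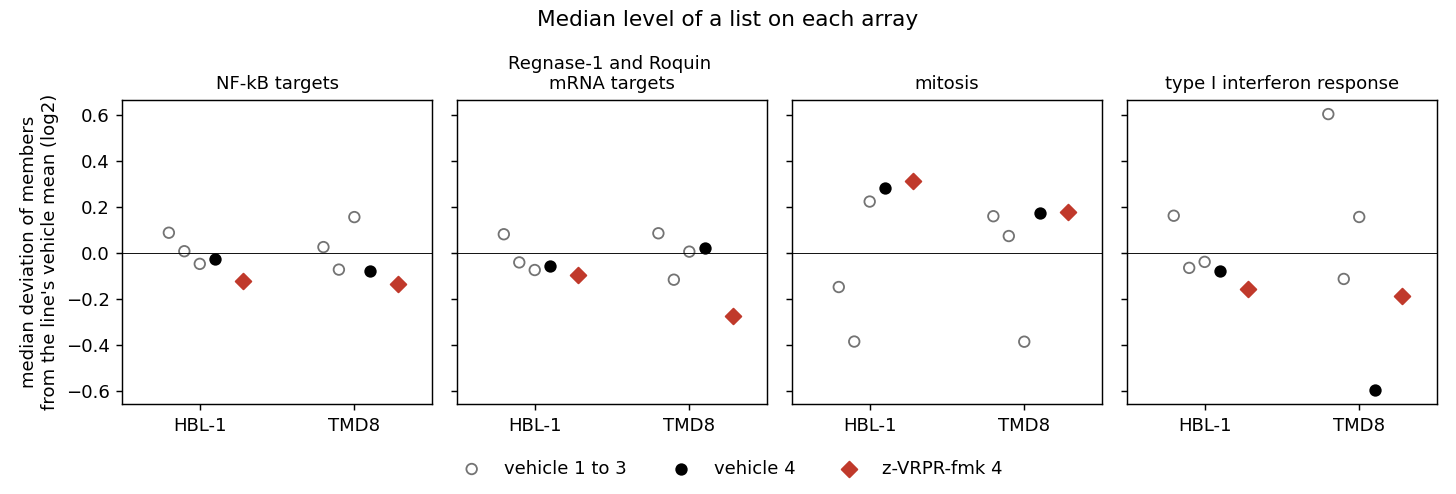
Median over the members of a list of each array's deviation from the line's vehicle mean (log2, vertical axis), for vehicle 1 to 3 (open circles), vehicle 4 (black) and z-VRPR-fmk (red diamonds) in HBL-1 and TMD8. The z-VRPR-fmk array is the lowest of its line for NF-kB targets and for Regnase-1 and Roquin targets, it sits beside vehicle 4 for mitosis, and in TMD8 vehicle 4 is the lowest for interferon genes.

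ABC-type DLBCL cells secrete IL-6 and IL-10, which act back on the cells through JAK kinases and STAT3. Of 25 tested genes of this loop 21 were lower, with a median of -0.09, the same to 2 decimals against vehicle 4. In both lines 9 were lower and 1 higher (4838 and 4437 of all 17581 genes). The list's median deviation with z-VRPR-fmk was below the vehicle range in HBL-1 (-0.10, vehicle -0.04 to 0.06). In TMD8 it was inside that range (-0.09, vehicle -0.12 to 0.17). PIM2, a kinase induced by STAT factors, stood below all vehicle arrays in both lines, at 10.82 against 11.04 to 11.24 in HBL-1 and at 10.49 against 10.68 to 11.02 in TMD8. Its change of -0.30 (SE 0.13, unadjusted p = 0.0313) did not pass the adjusted test, and its differences from vehicle 4 were -0.22 and -0.24. PIM1 had a change of 0.00, STAT3 of -0.02 and SOCS3 of -0.33. Of 27 tested genes that mark ABC-type DLBCL 20 were lower, with a median of -0.14 against all vehicle arrays and -0.16 against vehicle 4. Below all vehicle arrays in both lines were 3 of them (11.1%, against 4.74% of all genes): BATF, PIM2 and NFKBIZ. Of the 27, 12 were lower in both lines and 3 higher in both. The median deviation of the ABC-type list with z-VRPR-fmk was below the vehicle range in HBL-1 (-0.21, vehicle -0.06 to 0.10). In TMD8 it was inside that range (-0.06, vehicle -0.11 to 0.09). The STAT3 loop and ABC-type lists share members with each other and with the NF-kB list, among them BATF, PIM1, CCND2, IL6 and IL10.

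IRF4, which drives plasma cell differentiation and ABC-type lymphoma survival, differed in value between the lines. In HBL-1 it stood at 9.37, 8.80, 8.75 and 8.78 with vehicle and 8.16 with z-VRPR-fmk. In TMD8 it stood at 11.00, 10.70, 10.72 and 10.80 with vehicle and 10.82 with z-VRPR-fmk, inside the vehicle range. The change was -0.77 in HBL-1 and 0.01 in TMD8, and the difference of 0.78 (SE 0.32) between the lines did not pass (adjusted p = 1 by limma). CCR7, a chemokine receptor for lymph node homing, had a change of -0.13 in HBL-1 and 1.11 in TMD8, where it stood at 10.07 against at most 9.45 with vehicle. That difference between the lines, 1.24 (SE 0.53), did not pass either (adjusted p = 1). POU2AF1, a B cell coactivator of octamer factors, had a like value in both lines, 0.62 in HBL-1 and 0.63 in TMD8, above all vehicle arrays, with 0.12 and 0.44 against vehicle 4. The 31 tested genes of B cell receptor signalling had a median of 0.06, 5 above all vehicle arrays in both lines (16.1%, against 4.29%) and 1, CD79A, below them.

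Cell cycle and interferon genes depended on which vehicle arrays were used. Of 36 mitosis genes 35 were higher with z-VRPR-fmk, with a median of 0.24 over both lines, yet against vehicle 4 the median was 0.01 and 16 of 36 were lower. In HBL-1 the median deviation of the mitosis list was -0.15, -0.38, 0.22 and 0.28 on vehicle arrays 1 to 4 and 0.31 with z-VRPR-fmk. In TMD8 it was 0.16, 0.07, -0.38 and 0.17 with vehicle and 0.18 with z-VRPR-fmk. The z-VRPR-fmk arrays lay beside the highest vehicle arrays of each line, and the vehicle arrays alone spanned more than the difference. The 5 above all vehicle arrays in both lines (13.9%, against 4.29% of all genes) were CCNB2, BUB1B, TTK, HMMR and NUSAP1, by 0.23 to 0.46 against the vehicle mean (TTK 0.46, with 0.22 and 0.28 against vehicle 4). None of the 36 had an unadjusted p under 0.05.

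Of 42 type I interferon response genes 29 were lower than the vehicle mean, with a median of -0.17, but against vehicle 4 the median was 0.22 and 8 of 42 were lower. The turn came from TMD8, where the vehicle arrays gave list medians of 0.60, -0.11, 0.16 and -0.60 and z-VRPR-fmk gave -0.19. IFIT1, an antiviral RNA-binding protein, illustrates it: it stood at 9.70, 8.91, 9.34 and 7.12 with vehicle and 8.38 with z-VRPR-fmk in TMD8. The z-VRPR-fmk level lay inside the vehicle range, -0.39 from its mean and 1.26 above vehicle 4. IFITM3 went below all vehicle arrays in both lines, with a change of -0.47 and differences of -0.23 and -0.56 from vehicle 4, without passing the adjusted test. No direction can be given for the interferon list as a whole.

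**Figure D4:**
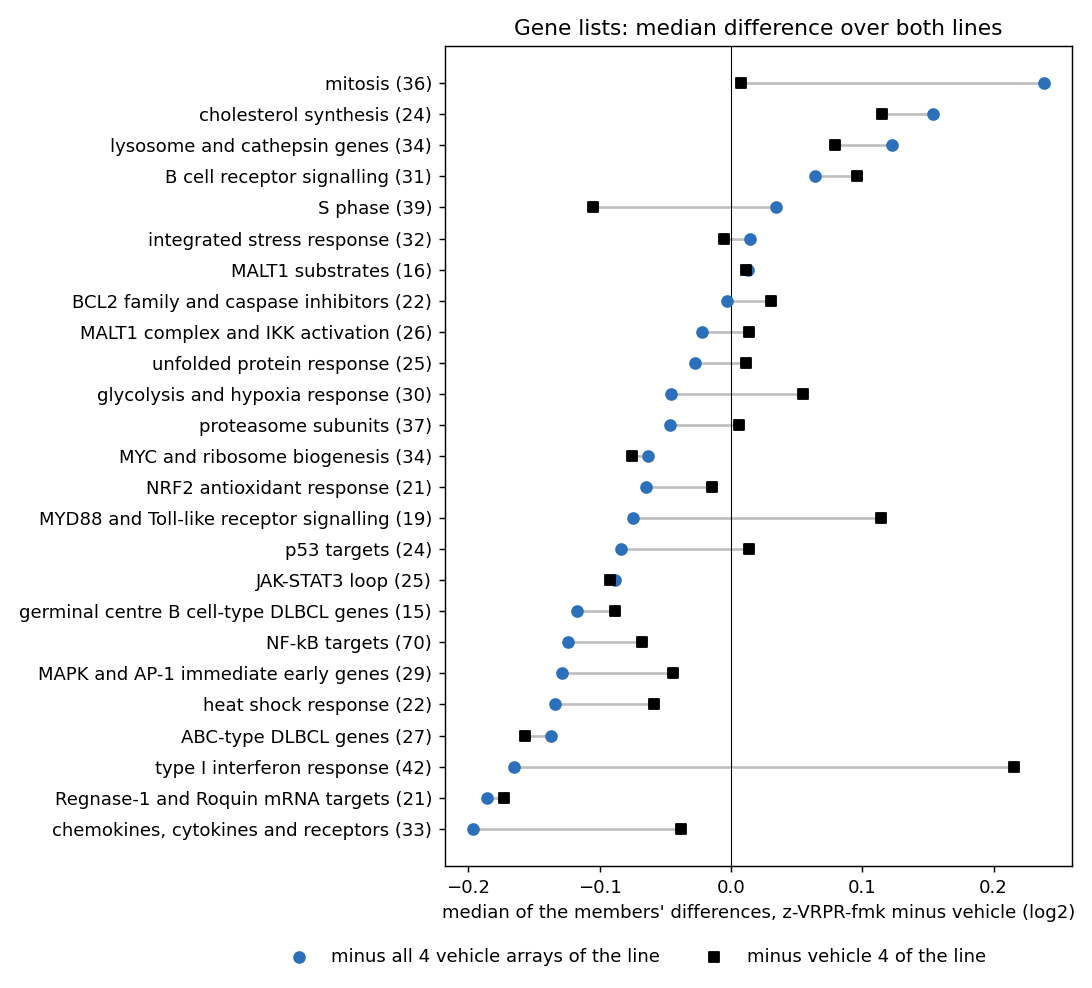
Median difference over the members of each of 25 gene lists (log2, horizontal axis, number of tested members in brackets), z-VRPR-fmk minus all 4 vehicle arrays of the line (blue circles) and minus vehicle 4 (black squares), over both lines. The 2 values lie close for Regnase-1 and Roquin targets (-0.19 and -0.17), ABC-type genes (-0.14 and -0.16) and cholesterol synthesis (0.15 and 0.12), and far apart for mitosis (0.24 and 0.01) and interferon genes (-0.17 and 0.22).

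Genes of cholesterol synthesis were higher on balance, 22 of 24, with a median of 0.15 against all vehicle arrays and 0.12 against vehicle 4. IDI1, isopentenyl diphosphate isomerase, stood at 7.97, 8.45, 7.89 and 8.20 with vehicle and 8.65 with z-VRPR-fmk in HBL-1, and at 8.66, 9.42, 9.33 and 9.16 against 9.67 in TMD8. It lay above every vehicle array in both lines, with a change of 0.53 (SE 0.19, unadjusted p = 0.0117) and differences of 0.45 and 0.52 from vehicle 4. SC4MOL, a sterol oxidase now called MSMO1, had a change of 0.41, and its 2 other probes gave -0.12 and 0.54. SREBF2, the transcription factor of the pathway, was near the detection limit with a change of 0.44. The vehicle arrays of HBL-1 spanned list medians of -0.28 to 0.29, so the z-VRPR-fmk value of 0.17 there was inside their range. In TMD8 the z-VRPR-fmk value of 0.10 was also inside the vehicle range, -0.25 to 0.12.

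Of 34 lysosome and cathepsin genes 24 were higher, with a median of 0.12 and 0.08 against vehicle 4. CTSH, a cathepsin, had a change of 0.38, with 0.12 and 0.10 against vehicle 4, while CTSS, the cathepsin that trims the MHC class II invariant chain, had one of -0.44, with -0.54 and -0.63. Among 22 heat shock genes 5 lay below all vehicle arrays in both lines (22.7%, against 4.74%), among them HSPE1 (-0.47) and BAG3 (-0.54), and the list median was -0.13, or -0.06 against vehicle 4. Of 34 MYC and ribosome biogenesis genes 6 lay below (17.6%), led by PPAN with a change of -0.58 and differences of -0.27 and -0.42 from vehicle 4. Of 37 proteasome subunits 6 lay below (16.2%) and 2 above, with a median of -0.05. No member of these lists passed the adjusted test. The remaining lists had medians of -0.20 (chemokines, cytokines and receptors) to 0.03 (S phase).

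Taken line by line, 0 genes passed in HBL-1 (468, or 2.66%, at an unadjusted p under 0.05) and 2 in TMD8 (0.0114%, with 895 or 5.09% at an unadjusted p under 0.05), PTPRU and the uncharacterised LOC100134560, both higher. LOC100134560 passed in 8 of 25 alternatives. PTPRU, a receptor tyrosine phosphatase, stood at 4.83, 4.38, 4.60 and 4.64 with vehicle and 7.13 with z-VRPR-fmk in TMD8. In HBL-1 it stood at 4.17, 4.99, 4.49 and 4.30 with vehicle and 4.20 with z-VRPR-fmk. It was thus high on a single array, and detected in TMD8 on 2 of 4 vehicle arrays and in HBL-1 on 1 of 4 and not with z-VRPR-fmk. The TMD8 change was 2.52 (SE 0.25, adjusted p = 0.000436 by limma). In HBL-1 the 4.20 measured with z-VRPR-fmk lay inside the range of the vehicle arrays (mean 4.49), most of them not above background. No fall can be given there. The fitted difference between the lines, 2.81 (SE 0.36), uses that measured value, which was not above background, and was the only one to pass (adjusted p = 0.0109, 0.00569% of genes, with 3.46% at an unadjusted p under 0.05). A second PTPRU probe gave a change over both lines of -0.11. With the replicate block the adjusted p was 0.238 for TMD8 and 1 for the difference between the lines. The TMD8 change was 1.15 without background correction, 1.19 with the mean of both probes and 0.70 in the authors' deposited values, and passed in each. The difference between the lines did not pass in the authors' deposited values (0.78, adjusted p = 0.106), with the mean of both probes (1.36, 0.638), with only the 10 z-VRPR-fmk and vehicle arrays in the fit (0.13) or without both vehicle 4 arrays (0.0504).

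**Figure D5:**
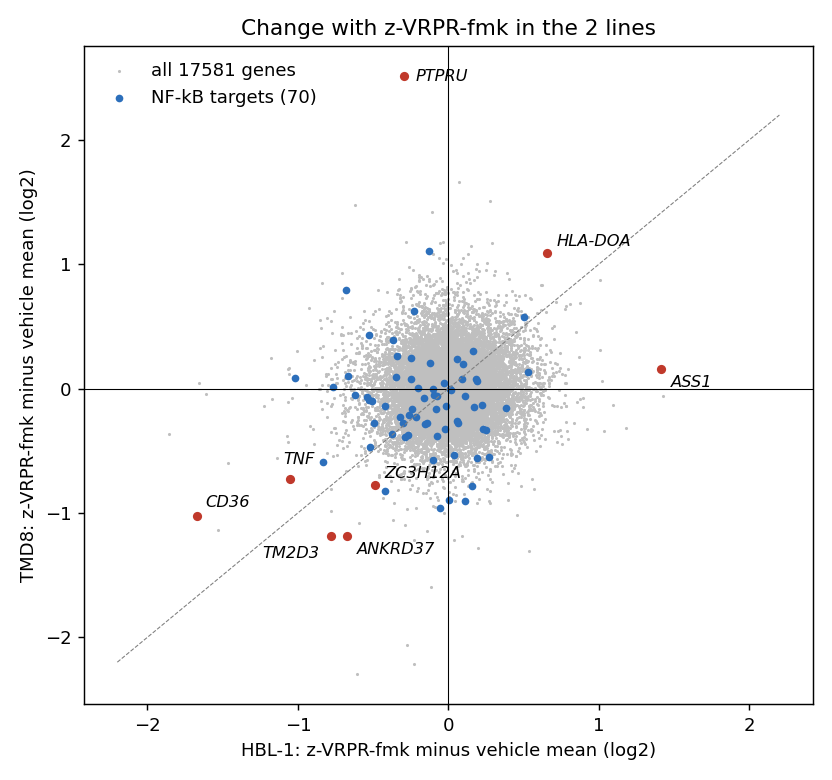
Change with z-VRPR-fmk (z-VRPR-fmk minus the vehicle mean of the line, log2) in HBL-1 (horizontal axis) and TMD8 (vertical axis) for all 17581 genes (grey), the 70 NF-kB targets (blue) and 8 named genes (red), with the line of equal change dashed. TM2D3, ANKRD37, ZC3H12A, CD36 and TNF lie in the lower left, PTPRU at 2.52 in TMD8 alone, and ASS1 at 1.42 in HBL-1.

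Among the genes set aside for the widest difference between the lines, none but PTPRU passed. CCL4L2, a chemokine, stood at 8.00, 8.36, 8.97 and 6.27 with vehicle and 5.84 with z-VRPR-fmk in TMD8, a change of -2.06 there and of -0.27 in HBL-1. EGR2, an immediate early transcription factor, had a change of 0.54 in HBL-1 and -1.31 in TMD8. GBP2, an interferon-induced GTPase, had -0.62 and 1.48. For CCL4L2 and GBP2 vehicle 4 of TMD8 stood nearer to z-VRPR-fmk than the other vehicle arrays did, with differences of -0.43 and 0.41.

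The direct comparison with MI-2 (2 arrays against 6, with no vehicle array in the contrast) separated 4 genes (0.0228%), 3 of them lower (0.0171%), while 7.29% had an unadjusted p under 0.05. The MI-2 arrays are numbered 1 to 3 and the z-VRPR-fmk arrays 4. Inhibitor and replicate number therefore cannot be told apart in this comparison. TM2D3 was lower with z-VRPR-fmk than with MI-2 by a difference of -1.14 (SE 0.14, adjusted p = 0.00652 by limma). ANKRD37 had a difference of -0.98 and ZC3H12A one of -0.88, both with an adjusted p of 0.025. TM2D3 on the 6 MI-2 arrays stood at 10.54, 10.73 and 10.53 in HBL-1 and at 10.34, 10.48 and 10.38 in TMD8, in or above the range of the vehicle arrays. ZC3H12A stood at 7.65, 7.69 and 7.47 in HBL-1 and at 7.99, 8.14 and 8.30 in TMD8 with MI-2, so that the z-VRPR-fmk arrays (6.79 and 7.20) were the lowest of all 8 inhibitor and vehicle arrays of their line. PTPRU was the fourth gene, higher by 1.24, and again rested on the TMD8 array. It was not detected on any of the 6 MI-2 arrays or with z-VRPR-fmk in HBL-1, so 1.24 is a fitted difference that includes values not above background. All 4 calls were lost with arrays scaled to their medians (adjusted p = 0.869 for TM2D3, ANKRD37 and ZC3H12A, 0.279 for PTPRU). All 4 were also lost with the replicate block, where the differences were -0.86 for TM2D3, -0.79 for ANKRD37, -0.77 for ZC3H12A and 1.35 for PTPRU (adjusted p = 1 for each). ZC3H12A lost its call (adjusted p 0.0519 to 0.0771) without MI-2 array 1 or 2 of HBL-1, MI-2 array 2 or 3 of TMD8 or TMD8 vehicle 1, and ANKRD37 (0.0536 to 0.0612) without those same MI-2 arrays. PTPRU (0.0536 to 0.0656) lost it without MI-2 array 1 or 2 of HBL-1 or any MI-2 array of TMD8. Its call was also lost without background correction (0.062), in the authors' deposited values (0.116) and with the mean of both probes (0.317). Among the lists, unfolded protein response genes had a median difference from MI-2 of -0.28 (22 of 25 lower), against -0.03 from vehicle and 0.01 from vehicle 4. Mitosis genes had one of 0.31 (2 of 36 lower), against 0.24 from vehicle and 0.01 from vehicle 4.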

How the data were processed

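Total RNA was extracted and labelled as biotinylated cRNA for Illumina bead arrays, per the labels' protocols. Per the file headers, the authors deposited a signal intensity (linear, not normalized) and a detection p-value for each of 47323 probes on each array. They also deposited log2 values for 34687 named genes, of unstated processing. Partek is named, without version or role, per the submitters' processing notes. Slides and probe annotation are not stated.

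Gene names were joined to probes by value. Intensities were first carried through a rising curve per array, fitted to the matched genes themselves and in part by row position. The deposited log2 values of 34679 genes then matched a probe or set of probes within 0.02 log2 on all 16 arrays. After the arrays were shuffled 0 matched, but the curves had been fitted to the unshuffled arrays. A few genes with near-identical values could be mismatched. In all, 92 spike-in controls, 8 genes and 45 probes without a match were left out. Names are as the files give them; of the genes tested 10633 are current RefSeq symbols, 2048 are synonyms and 4900 are neither.

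Intensities were background-corrected and quantile normalized with limma's neqc (limma 3.58.1, R 4.3.3, offset 16). Probes were kept if detected (p under 0.05) on 3 or more of the 16 arrays, and the brightest probe on average stood for its gene. Changes were fitted over all 16 arrays (lmFit and eBayes) with 1 z-VRPR-fmk term beside the line and the effect of MI-2 in each line, or with 6 group means for single lines and for the comparison with MI-2. All p-values printed are limma's, two-sided, and adjusted ones are by Benjamini-Hochberg over all genes. Where a probe was not detected on any array of a group, the fold is given as a lower bound ("at least"), set against the lowest level among detected probes. The mean of the other group is over all its arrays, detected or not, so the bound is not strict where some were not. Precision is limited by how few arrays there are. The fits were tested on simulated data with independent noise on each array. That simulation held no effect shared by arrays of the same number, so it does not cover the pairing described next.

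The labels number the arrays within a line. Deviations of same-numbered MI-2 and vehicle arrays from their group means correlated at 0.18 to 0.33 in all 6 pairs, and those with different numbers at -0.24 to -0.07. Each z-VRPR-fmk array, numbered 4, taken against the MI-2 mean correlated with vehicle 4 of its line at 0.43 (HBL-1) and 0.35 (TMD8), and with other vehicles at -0.23 to 0.05. Deviations cancel within a group, so positive values for same numbers force the other values to be negative on average. Only the same-number values bear on the pairing. By those values the numbers paired the arrays, from the data and not from a label. The difference from vehicle 4 is given for many of the genes and lists named, but not for all.

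Named genes were those that passed and lay outside the vehicle arrays of each line, filled to 12 per direction by size, 3 per direction for the other contrasts, a fixed set of pathway genes, and up to 3 per direction in each of 26 lists. Uncharacterised loci were counted but not described. The members, lists and rules were chosen with earlier results of these data known, and genes named only as members of a count were chosen after their values were seen. Promoter windows came from RefSeq (GRCh38.p14). RC3H1 and CCL4 did not pass the detection filter. Not every gene that the rule names is described. Alternatives covered background correction, scaling, the deposited log2 values, the filter, the probe rule, the variance model, the arrays in the fit, array weights, the replicate block and each array left out.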

Additional observations from a re-analysis of the deposited data

Results flagged for a closer look

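Of 132 groups of 4 vehicle arrays that were examined among the genes described, 7 held an array set apart from the other vehicle arrays of its line. Chance alone flags about 1 in 20 such groups. The arrays were HBL-1 vehicle 1 for RBCK1 (7.30, the others 7.58 to 7.62) and IRF4 (9.37, the others 8.75 to 8.80), HBL-1 vehicle 2 for NFKB2 (5.68, the others 6.39 to 6.51) and HBL-1 vehicle 3 for BATF (10.09, the others 9.72 to 9.76). In TMD8 they were vehicle 1 for NFKBIZ (11.86, the others 11.52 to 11.53), vehicle 2 for MAP3K14 (7.05, the others 6.46 to 6.48) and vehicle 3 for SFN (6.26, the others 6.73 to 6.82). Vehicle 4 was not among them by this rule. It still lay apart from the other vehicle arrays for CD36, and the mitosis and interferon medians differed when taken against it alone, as given above.

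The change of PTPRU differed between the lines by 2.81 log2, higher in TMD8, in the test of that difference, and rests on 1 TMD8 array and on an HBL-1 z-VRPR-fmk value not above background.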

How the results depend on the processing

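Of 27 alternatives, the fit over both lines called the same number of genes as reported in 6. It called 2 genes with detection on at least 8 arrays, with the mean of a gene's probes, with a trended and robust variance and with array weights, TM2D3 and ANKRD37 each time. It called 0 with arrays scaled to their medians (226 at an unadjusted p under 0.05), with only the 10 z-VRPR-fmk and vehicle arrays (901) and with the replicate block (597), and 0 to 3 with an array left out. Without both vehicle 4 arrays, an alternative chosen after seeing the data, it called 5. For HBL-1 the count was 2 with no filter, 2 without both vehicle 4 arrays and 0 to 1 with an array left out. For TMD8 it was 1 with median scaling or only the 10 arrays, 26 with no filter, 0 with detection on at least 8 arrays or the replicate block, 4 with mean probes, 6 with array weights, 10 without both vehicle 4 arrays and 1 to 13 with an array left out (13 without TMD8 vehicle 4). The 2 TMD8 calls were both higher as reported, but 1 was higher and 1 lower without background correction, in the deposited values and with a trended and robust variance, and without both vehicle 4 arrays 4 were higher and 6 lower. For the difference between the lines it was 2 with no filter and 0 in the authors' deposited values, with detection on at least 8 arrays, mean probes, only the 10 arrays, the replicate block or without both vehicle 4 arrays, and 1 in each fit with an array left out. For the comparison with MI-2 it was 0 with median scaling or the replicate block, 7 with no filter or without both vehicle 4 arrays, and 1 to 6 with an array left out. The cause was not tested. The median of Regnase-1 and Roquin targets was -0.27 with median scaling, -0.10 in the deposited values, -0.34 with detection on at least 8 arrays and -0.27 to -0.094 with an array left out, and that of NF-kB targets -0.20 with median scaling, -0.07 in the deposited values, -0.08 without background correction, -0.07 with the replicate block and -0.16 to -0.10 with an array left out. No called value changed sign. With the replicate block TM2D3 had a change of -0.78 (adjusted p = 1). The median change of all genes was -0.07 with median scaling. Among the 6134 values of named genes and of the other lists under alternatives, 61 lost a call, 14 gained one and 199 changed sign, all of them values not called. A probe not detected in a group has only a bound there.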
